A study of Mus musculus with 8 samples.

Results

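The cells that line the blood vessels of the brain, the endothelial cells, are described here through 40 genes in the brains of fasted and fed mice. The 40 genes fall into 7 roles: transporters of the blood-brain barrier (7 genes), junction and adhesion proteins (5), angiogenic ligands (5), angiogenic receptors (7), genes of arterial endothelium (5), other surface and signalling proteins of endothelium (8), and endothelial transcription factors (3). Members were found by the gene name that the array files give for each probe, which returned 56 probes for the 40 genes. Of these probes, 51 were well above background on at least 4 of the 8 arrays and entered the test. They cover 39 of the 40 genes, out of 15995 genes tested in all. The gene left out was Aplnr, the receptor for apelin, whose probe missed the well-above-background call on all 8 arrays. Second probes of Ocln, Bmx, Podxl and Vwf were dropped for the same reason.

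Mice (Mus musculus) had either been fasted for 17 h or fed over the same time, after which the brain was taken and its RNA hybridised to single-colour Agilent expression arrays, 4 arrays per group. Strain, genotype, sex, age, brain region and the number of mice behind each sample are not given in the sources used here. Nothing in the labels says that the 4 samples of a group came from separate animals, so the p-values cover only how far these samples spread, which may be technical, and their small number limits the precision. Values below are scaled log2 signals: the log2 of a probe's signal minus the 75th percentile of its array. A difference is fasted minus fed on that scale with its standard error (SE, 4 arrays per group), and a gene is represented by its brightest kept probe. A gene passed the test where the Benjamini-Hochberg adjusted p of limma, a linear model fitted over all 26066 kept probes, was under 0.05.

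Brain endothelium differs from that of other organs in that its cells are sealed to each other by tight junctions and take up little by vesicles. Nutrients such as glucose therefore cross through dedicated carriers, while efflux pumps of the ABC family return drugs and metabolites to the blood. Growth and maintenance of these vessels depend on ligand and receptor pairs, among them VEGF-A with Flt1 and Kdr, the angiopoietins with Tek, and apelin with Aplnr, and Wnt signalling through Lef1 keeps the barrier state. The RNA came from whole tissue, in which endothelium is a small part, so fewer endothelial cells and less RNA per endothelial cell cannot be told apart in any value below.

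The arrays were alike in quality. The 75th percentile of the signal was 1651 to 1944 intensity units, between 62.3% and 69.0% of probes were well above background, and each array correlated with the others of its group at 0.995 or more on average over probes. The 8 arrays lay on 2 slides with 2 fasted and 2 fed arrays each. On each slide the fasted samples took positions 1 and 3 and the fed samples 2 and 4, so that position and fasting cannot be told apart. All 13 junction, surface and signalling members were well above background on every array, which does not tell which cells made their RNA. Their summed signal was 18.2 to 21.6 times the 75th percentile in fasted arrays and 18.5 to 19.9 times in fed arrays, and these ranges overlap. Ly6c1, the brightest of the 13, weighs most in this sum. Of the 13, 1 passed as higher and 3 as lower in fasted brain, beside 18.4% of all genes tested in either direction. Their median difference was -0.09.

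Of the 39 members tested, 19 passed, 9 higher and 10 lower in fasted brain, and 20 did not. The members that passed are 48.7% of those tested. Over all genes tested, 18.4% passed, 9.46% higher and 8.96% lower. The members were chosen with earlier results of these arrays known, so this count describes them and is not a test of the list. Fasted and fed values did not overlap for 21 members, the 19 that passed plus Bmx and Lef1, against 26.9% of all genes. The median difference was -0.16 over the members and -0.01 over all genes. Differences were modest, with folds of 1.16 to 1.98 among the members that passed, and 16 of these 19 changed by at least 1.2-fold. Their median size on the log2 scale was 0.31, beside 0.24 over all genes that passed.

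Directions varied between roles and within some of them, as the plot of all 39 differences shows. Of 7 barrier transporters 5 were higher and none lower. Of 6 angiogenic receptors 3 were lower and 1 higher, and of 5 arterial genes 2 were lower and none higher. Ligands, junction proteins and transcription factors were mixed or few. These counts were not tested against each other.

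**Figure D1:**
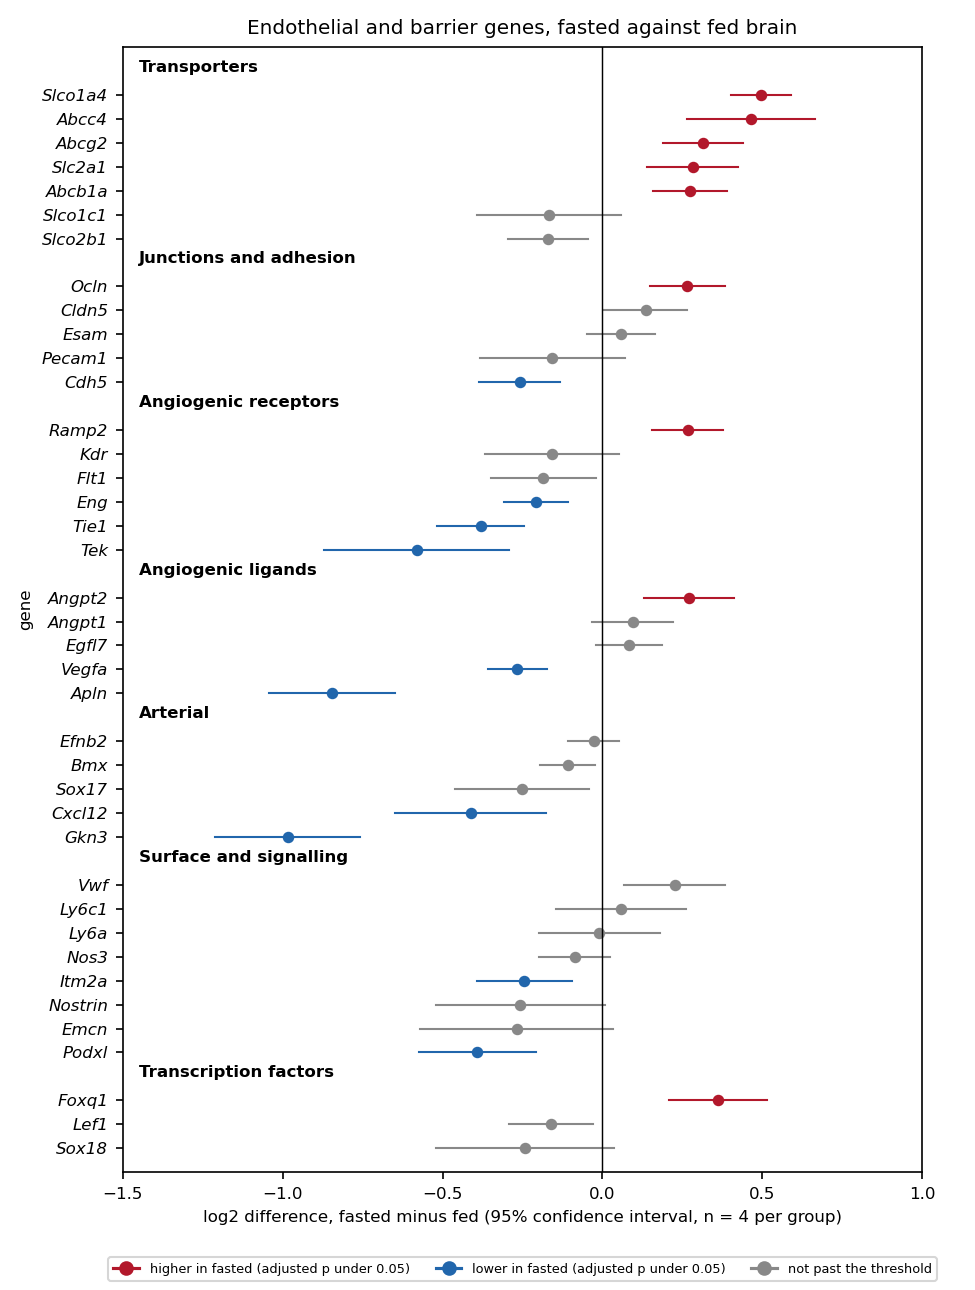
Difference between fasted and fed brain for the 39 members tested, grouped by role; the horizontal axis is the log2 difference, points are limma estimates and bars are 95% confidence intervals (4 arrays per group). Members past the threshold are coloured, 9 to the right of 0 and 10 to the left; Gkn3 (-0.98) and Apln (-0.85) lie farthest to the left and Slco1a4 (0.50) farthest to the right.

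Sequences are shown first for the probes of the 3 genes on which the account turns most. These are the transporter that rose most and the members that fell most. Each line gives the first 30 of a probe's 60 bases, 5′ to 3′, as the array files print them.
Slco1a4: tatctcggtggatatgtgattgcctaatac
Gkn3: tctgaacctctacgtcagccagactggaca
Apln: gtcctttggcatctgttcgaatgtcctcat
In mm9, the build of the array design, these probes are at chr6:141754675-141754734 for Slco1a4, chr6:87333375-87333434 for Gkn3 and chrX:45378593-45378652 for Apln. Which exon or untranslated region lies under each probe was not analysed here.

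Of 7 transporters of the barrier 5 rose in fasted brain: Slco1a4, Abcc4, Abcg2, Slc2a1 and Abcb1a passed, with differences of 0.27 to 0.50, while Slco1c1 and Slco2b1 did not pass. The summed signal of the 7 transporters was 11.6 to 12.8 times the 75th percentile in fasted arrays and 9.96 to 10.8 times in fed arrays, without overlap. Slc2a1, the brightest of the 7, weighs most in this sum. Slco1a4 encodes an organic anion transporting polypeptide that carries bile salts, steroid conjugates and drugs across the barrier. Its scaled log2 signals were -0.17, -0.23, -0.28 and -0.22 in fasted replicates 1 to 4 and -0.69, -0.66, -0.79 and -0.74 in fed replicates 1 to 4. Each fasted array was above each fed array by a margin larger than the whole spread of either group. The difference was 0.50 ± 0.04 (SE), a 1.41-fold higher signal (95% CI 1.32 to 1.50, limma adjusted p = 0.000967).

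The ABC efflux pumps among the members all rose. Abcc4, which exports organic anions and cyclic nucleotides, was at -0.74, -0.95, -0.77 and -1.14 in fasted replicates 1 to 4 and at -1.37, -1.36, -1.31 and -1.43 in fed replicates 1 to 4. The fed arrays lay close together, the fasted arrays were more scattered, and the groups did not overlap. Its difference was 0.46 ± 0.09, or 1.38-fold (95% CI 1.20 to 1.59, limma adjusted p = 0.0116). Abcg2, the breast cancer resistance protein, was at 0.99, 0.94, 1.17 and 0.96 in fasted arrays against 0.67, 0.68, 0.75 and 0.70 in fed arrays. This is 1.24-fold higher (95% CI 1.14 to 1.36, adjusted p = 0.00882), with fasted replicate 3 the highest of all arrays. Abcb1a, the main P-glycoprotein of mouse brain capillaries, was at 0.04, -0.13, 0.08 and 0.02 in fasted arrays and -0.26, -0.27, -0.24 and -0.33 in fed arrays. It was 1.21-fold higher (95% CI 1.12 to 1.31, adjusted p = 0.0110), and again no fed array reached a fasted value. Abcb1a and its close relative Abcb1b are similar in sequence. Abcb1b, by its own probe, was also higher in fasted brain, by 0.29 (limma adjusted p = 0.0103). Whether either probe reads both genes was not analysed here, so the 2 differences may not be separate results.

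Slc2a1 encodes GLUT1, the carrier through which glucose enters the brain. Fasted replicates 1 to 4 were at 2.84, 2.69, 2.73 and 2.59 and fed replicates 1 to 4 at 2.37, 2.37, 2.53 and 2.44. The lowest fasted value lay just above the highest fed value. The difference of 0.28 ± 0.06 is a 1.22-fold higher signal (95% CI 1.1 to 1.34, limma adjusted p = 0.0195). Without fed replicate 1 or fed replicate 2 the adjusted p rose to 0.0514 and 0.0540. GLUT1 is also made by astrocytes, and the astrocyte markers were also higher in sum: their summed signal was 58.4 to 61.3 times the 75th percentile in fasted and 51.4 to 54.8 times in fed arrays, with 2 of 8 higher and 1 lower. Their part in the Slc2a1 difference was not tested.

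Among the members, the other organic anion transporting polypeptides did not pass and pointed the other way. Slco1c1, the thyroxine transporter of brain capillaries, was at -0.53, -0.34, -0.15 and -0.22 in fasted replicates 1 to 4 and at -0.12, -0.34, -0.10 and -0.02 in fed replicates 1 to 4. The groups overlap, with a difference of -0.17 ± 0.10 (95% CI -0.39 to 0.06, limma adjusted p = 0.276). Slco2b1, an uptake carrier for steroid sulphates and drugs, was at -1.07, -1.08, -0.90 and -1.09 in fasted arrays and -0.95, -0.89, -0.79 and -0.83 in fed arrays. Its difference was -0.17 ± 0.05 (adjusted p = 0.0699), and only fasted replicate 3 reached into the fed range. Without that array the adjusted p was 0.0231, and blocking on the replicate number gave 0.0486. The second probes of Slco1c1 and Slco2b1 both differed by -0.08 (adjusted p = 0.338 and 0.320).

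**Figure D2:**
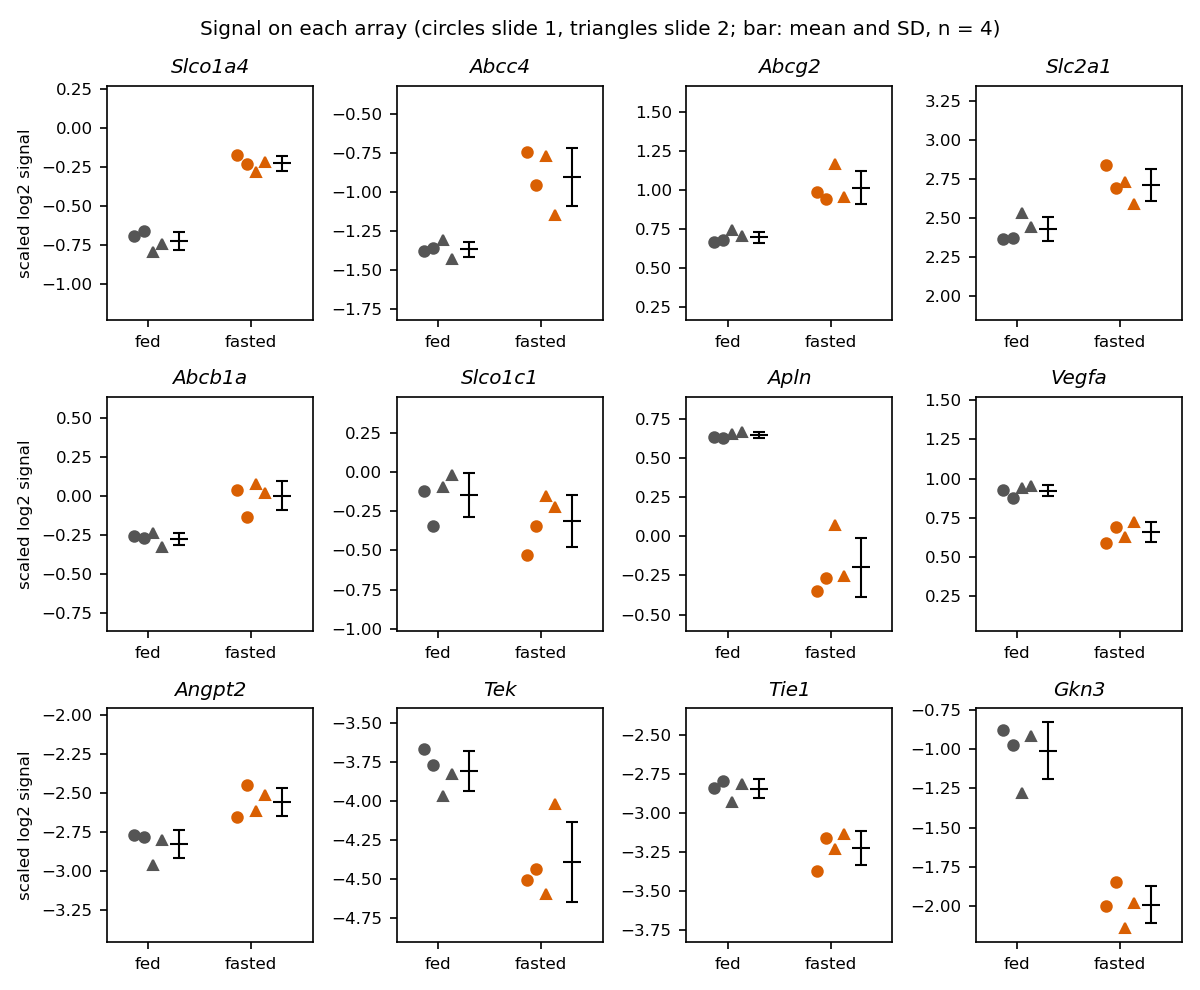
Scaled log2 signal on each of the 8 arrays for 12 members; circles are slide 1, triangles slide 2, and bars the mean and SD of 4 arrays per group. Slco1a4, Abcc4, Abcg2, Slc2a1 and Abcb1a sit higher in fasted brain without overlap, Apln, Vegfa, Tek, Tie1 and Gkn3 lower, and Slco1c1 overlaps.

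Junction and adhesion members did not move as a group: 1 of 5 was higher, 1 lower and 3 did not pass. Ocln, the tight junction protein occludin, was at -3.51, -3.67, -3.67 and -3.50 in fasted replicates 1 to 4 and at -3.84, -3.87, -3.89 and -3.81 in fed replicates 1 to 4. Its groups did not overlap, and the signal was 1.20-fold higher (95% CI 1.11 to 1.30, limma adjusted p = 0.0126). The probe was dim, and the call was lost with normexp background correction, where the difference was 0.10 (adjusted p = 0.227), and with an intensity trend in the variance (adjusted p = 0.0524). Cdh5, or VE-cadherin, the adhesion protein of endothelial adherens junctions, fell. Its values were -2.58, -2.52, -2.37 and -2.47 in fasted arrays and -2.24, -2.32, -2.17 and -2.18 in fed arrays, 1.20-fold lower (95% CI 1.1 to 1.31, adjusted p = 0.0177). Scaling each array to its median in place of the 75th percentile gave an adjusted p of 0.0543.

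Claudin 5, encoded by Cldn5 and the main sealing claudin of the barrier, was at 1.59, 1.67, 1.71 and 1.61 in fasted replicates 1 to 4 and at 1.51, 1.52, 1.38 and 1.63 in fed replicates 1 to 4. Fed replicate 4 lay inside the fasted range, and the difference of 0.14 ± 0.06 (95% CI 0.01 to 0.27) did not pass (limma adjusted p = 0.138). Neither did Pecam1, the adhesion protein CD31 (-0.16 ± 0.10, adjusted p = 0.310), or Esam, an adhesion molecule of endothelial tight junctions (0.06 ± 0.05, adjusted p = 0.426).

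Among the angiogenic ligands, Apln fell most. It encodes apelin, a peptide that endothelial cells secrete. Fasted replicates 1 to 4 were at -0.35, -0.26, 0.07 and -0.25, and fed replicates 1 to 4 at 0.63, 0.63, 0.66 and 0.67. The fed arrays were nearly identical, and every fasted array lay far below them, fasted replicate 3 least so. The difference was -0.85 ± 0.09, a 1.80-fold lower signal (95% CI 1.57 to 2.06, limma adjusted p = 0.00154). This was the 9th largest fall among the 1433 genes that were lower. The partner receptor could not be followed, since Aplnr was not well above background in any sample.

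Vegfa, the main growth factor for endothelium, also fell by its brighter probe. That probe read 0.59, 0.69, 0.63 and 0.72 in fasted replicates 1 to 4 and 0.93, 0.87, 0.94 and 0.95 in fed replicates 1 to 4. The groups were well apart, with a 1.20-fold lower signal (95% CI 1.13 to 1.28, limma adjusted p = 0.00544). The dimmer probe read -2.23, -2.01, -2.06 and -2.17 in fasted and -2.07, -2.20, -2.23 and -2.17 in fed arrays. Those groups overlap entirely, with a difference of 0.05 (adjusted p = 0.603). The probes of Vegfa therefore disagree, and the mean over both differed by -0.11 (adjusted p = 0.121). In brain, VEGF-A comes mainly from astrocytes and other cells outside the endothelium.

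Angpt2 encodes angiopoietin 2, which endothelial cells store and which can oppose angiopoietin 1 at the receptor Tek. It was at -2.65, -2.45, -2.61 and -2.51 in fasted replicates 1 to 4 and at -2.77, -2.78, -2.96 and -2.80 in fed replicates 1 to 4. The groups lay close without overlapping, 1.21-fold higher in fasted brain (95% CI 1.09 to 1.33, limma adjusted p = 0.0219). The call was lost without fasted replicate 2 (adjusted p = 0.0532), without fasted replicate 4 (0.0573), with normexp background correction (0.105) and without the filter on dim probes (0.0530). Angpt1, the activating ligand made by pericytes and other perivascular cells, differed by 0.09 ± 0.05 (adjusted p = 0.273), and passed only without fasted replicate 3 (adjusted p = 0.0361). Egfl7, a secreted protein of endothelial matrix, differed by 0.08 ± 0.04 (adjusted p = 0.237).

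Receptors of the Tie family fell together. Tek, or Tie2, is the receptor for angiopoietins. It was at -4.51, -4.44, -4.60 and -4.02 in fasted replicates 1 to 4 and at -3.67, -3.77, -3.97 and -3.83 in fed replicates 1 to 4. Fasted replicate 4 lay just below the lowest fed array, and the other fasted arrays were clearly lower. The signal was 1.50-fold lower (95% CI 1.22 to 1.83, limma adjusted p = 0.0191). The call was narrowly lost without fasted replicate 1 (adjusted p = 0.0547), fasted replicate 2 (0.0509) or fed replicate 2 (0.0511). Tie1, the co-receptor that modulates Tek, was at -3.37, -3.16, -3.23 and -3.14 in fasted arrays and -2.84, -2.79, -2.93 and -2.81 in fed arrays. It was 1.30-fold lower (95% CI 1.18 to 1.43, adjusted p = 0.00619), with a clear gap between the groups.

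Eng encodes endoglin, a co-receptor for TGF-beta and BMP ligands. It was at -1.89, -1.78, -1.93 and -1.79 in fasted replicates 1 to 4 and at -1.60, -1.68, -1.62 and -1.65 in fed replicates 1 to 4. It was 1.16-fold lower without overlap (95% CI 1.08 to 1.24, limma adjusted p = 0.0169), but it did not pass with the replicate number blocked (adjusted p = 0.0529). Ramp2, the partner that turns the calcitonin receptor-like receptor into an adrenomedullin receptor, rose. It was at 2.28, 2.21, 2.29 and 2.12 in fasted arrays and 1.96, 1.91, 2.02 and 1.95 in fed arrays, 1.20-fold higher (95% CI 1.11 to 1.30, adjusted p = 0.00980).

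The receptors for VEGF-A did not pass. Flt1, which binds VEGF-A tightly and limits its supply to Kdr, was at 2.06, 2.08, 2.27 and 2.19 in fasted replicates 1 to 4 and at 2.30, 2.28, 2.51 and 2.25 in fed replicates 1 to 4. The groups overlap slightly (-0.18 ± 0.07, limma adjusted p = 0.114), and its other probes differed by -0.02 and 0.14 (adjusted p = 0.938 and 0.176). Kdr, the main signalling receptor, was at 0.66, 0.60, 0.60 and 0.51 in fasted arrays and 0.80, 0.89, 0.84 and 0.47 in fed arrays. The difference was -0.16 ± 0.09 (adjusted p = 0.265), and fed replicate 4 alone lay below every fasted array. Without that array Kdr differed by -0.25 and passed (adjusted p = 0.0202), while its second probe differed by -0.03 (adjusted p = 0.780).

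Arterial members had the lowest median of the 7 roles, -0.25, with 2 of 5 lower and none higher. Their summed signal was 4.74 to 5.77 times the 75th percentile in fasted arrays and 6.30 to 7.27 times in fed arrays, without overlap. Cxcl12, the brightest arterial member, weighs most in this sum, and 3 of the 5 did not pass. Gkn3, a gastrokine known in brain as a marker of arterial endothelium, fell most of all members. Its scaled log2 signals were -2.00, -1.85, -2.14 and -1.98 in fasted replicates 1 to 4 and -0.88, -0.97, -1.28 and -0.91 in fed replicates 1 to 4. The gap between the groups was wider than the spread within either, and fed replicate 3 was the lowest fed array. The difference was -0.98 ± 0.10, a 1.98-fold lower signal (95% CI 1.69 to 2.31, limma adjusted p = 0.00153), the 5th largest fall among the genes that were lower.

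Cxcl12, a chemokine of arterial endothelium that neurons and meninges also make, was at 1.69, 1.73, 1.46 and 1.87 in fasted replicates 1 to 4 and at 2.28, 1.97, 2.17 and 1.99 in fed replicates 1 to 4. It was 1.33-fold lower (95% CI 1.13 to 1.57, limma adjusted p = 0.0314), and its second probe fell by 0.28 (adjusted p = 0.0265). The call of the brighter probe was fragile. It was lost when any 1 of fasted replicates 1, 2 and 3 or fed replicates 1 and 3 was left out (adjusted p = 0.0724, 0.0629, 0.0512, 0.0690 and 0.0707), without the filter on dim probes (0.0684), and with replicates as a block (0.0705). Bmx, a kinase of arterial endothelium, was at -1.57, -1.48, -1.47 and -1.50 in fasted and -1.34, -1.44, -1.41 and -1.39 in fed arrays. It did not overlap between groups, but the difference of -0.11 ± 0.04 did not pass (adjusted p = 0.0826).

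Sox17, a transcription factor of arterial identity, was at -2.15, -2.26, -2.60 and -2.36 in fasted replicates 1 to 4 and at -2.16, -2.09, -2.10 and -2.02 in fed replicates 1 to 4. The groups overlap slightly, and the difference of -0.25 ± 0.09 did not pass (limma adjusted p = 0.0954). Slide 1 gave -0.08 and slide 2 gave -0.42, and the second probe differed by -0.06 (adjusted p = 0.732). Efnb2, the arterial ligand of the ephrin family, differed by -0.03 ± 0.03 (adjusted p = 0.629), and its second probe by -0.27 (adjusted p = 0.0762).

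Summed signals of markers of the cells that wrap arteries and capillaries were lower in fasted arrays, while single markers moved in both directions. The summed signal of 11 pericyte markers was 8.74 to 9.38 times the 75th percentile in fasted arrays and 9.57 to 9.70 times in fed arrays, with 2 higher and 3 lower (1 and 2 with the replicate number blocked). That of 6 of 7 smooth muscle markers was 4.68 to 4.98 times in fasted and 5.38 to 5.56 times in fed arrays, with 1 higher and 2 lower and a median difference of 0.09. The seventh, Des, was not well above background on enough arrays to be kept. Each sum weighs its brightest marker most, Vtn for pericytes (-0.15, limma adjusted p = 0.0493) and Myl9 for smooth muscle (-0.25, adjusted p = 0.00327). Higd1b, Ndufa4l2 and Acta2 were also lower, while Pdgfrb, Abcc9 and Mylk were higher. The calls of Vtn and Pdgfrb were lost with the replicate number blocked (adjusted p = 0.0969 and 0.0823). The part of these cells in the arterial result was not tested.

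Surface and signalling members of endothelium gave 2 of 8 lower and none higher. That is 25% past the threshold, near the 18.4% of all genes. Podxl, the sialomucin podocalyxin on the luminal face of endothelium, was at -3.96, -3.99, -4.05 and -3.96 in fasted replicates 1 to 4 and at -3.43, -3.49, -3.69 and -3.78 in fed replicates 1 to 4. The fasted arrays were tightly grouped below the scattered fed arrays, 1.31-fold lower (95% CI 1.16 to 1.49, limma adjusted p = 0.0151). Itm2a, a membrane protein enriched in brain endothelium, was at 0.74, 0.76, 0.89 and 0.94 in fasted arrays and 1.16, 0.95, 1.06 and 1.14 in fed arrays. It was 1.19-fold lower (95% CI 1.07 to 1.31, adjusted p = 0.0372), with only a narrow gap between the groups. The call was lost when any 1 of fasted replicates 1, 2 and 3 or fed replicates 1, 3 and 4 was left out (adjusted p from 0.0506 without fasted replicate 3 to 0.0917 without fasted replicate 1). It was also lost with median scaling (0.0784) and without the filter on dim probes (0.0822).

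Von Willebrand factor, the clotting protein that endothelium stores and Vwf encodes, missed the threshold. It was at 0.59, 0.58, 0.71 and 0.44 in fasted replicates 1 to 4 and at 0.34, 0.47, 0.37 and 0.24 in fed replicates 1 to 4. Fasted replicate 4 lay below the highest fed array, and the difference was 0.23 ± 0.07 (limma adjusted p = 0.0587). It passed without fasted replicate 4 (adjusted p = 0.0373), with replicates as a block (0.0397), with an intensity trend (0.0314) and when only probes well above background on all arrays were tested (0.0455). Nostrin, which binds nitric oxide synthase and directs its traffic, was at -3.60, -3.76, -3.80 and -3.77 in fasted arrays and -3.84, -3.36, -3.36 and -3.34 in fed arrays. Fed replicate 1 stood apart as the lowest array of all. The difference was -0.26 ± 0.11 (adjusted p = 0.164) with that array and -0.38 (adjusted p = 0.0107) without it.

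The synthase itself, Nos3, differed by -0.09 ± 0.05 (limma adjusted p = 0.252). Its second probe differed by -0.15 (adjusted p = 0.0514, or 0.0408 when blocked by replicate number). Emcn, the sialomucin endomucin of capillaries and veins, differed by -0.27 ± 0.13 (adjusted p = 0.197, or 0.0324 when blocked by replicate number). Ly6c1 and Ly6a, GPI-anchored surface proteins abundant on mouse brain endothelium, differed by 0.06 ± 0.09 and -0.01 ± 0.08 (adjusted p = 0.698 and 0.949). The 95% intervals of these differences were -0.15 to 0.26 for Ly6c1 and -0.20 to 0.18 for Ly6a.

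Of the transcription factors, Foxq1, a forkhead factor enriched in brain endothelium, rose. It was at -1.69, -1.90, -1.82 and -1.92 in fasted replicates 1 to 4 and at -2.26, -2.05, -2.24 and -2.23 in fed replicates 1 to 4. The groups did not overlap, with fed replicate 2 the highest fed array, and the signal was 1.28-fold higher (95% CI 1.15 to 1.43, limma adjusted p = 0.0108). Lef1, which carries Wnt signals to the barrier genes and is also made by some neurons, was at 0.24, 0.41, 0.47 and 0.50 in fasted arrays and 0.57, 0.54, 0.59 and 0.57 in fed arrays. These did not overlap, but the difference of -0.16 ± 0.06 did not pass (adjusted p = 0.0894). The mean over its probes passed (adjusted p = 0.0487). Sox18, which acts beside Sox17 in endothelium, differed by -0.24 ± 0.12 (adjusted p = 0.205), by -0.07 on slide 1 and -0.41 on slide 2.

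**Figure D3:**
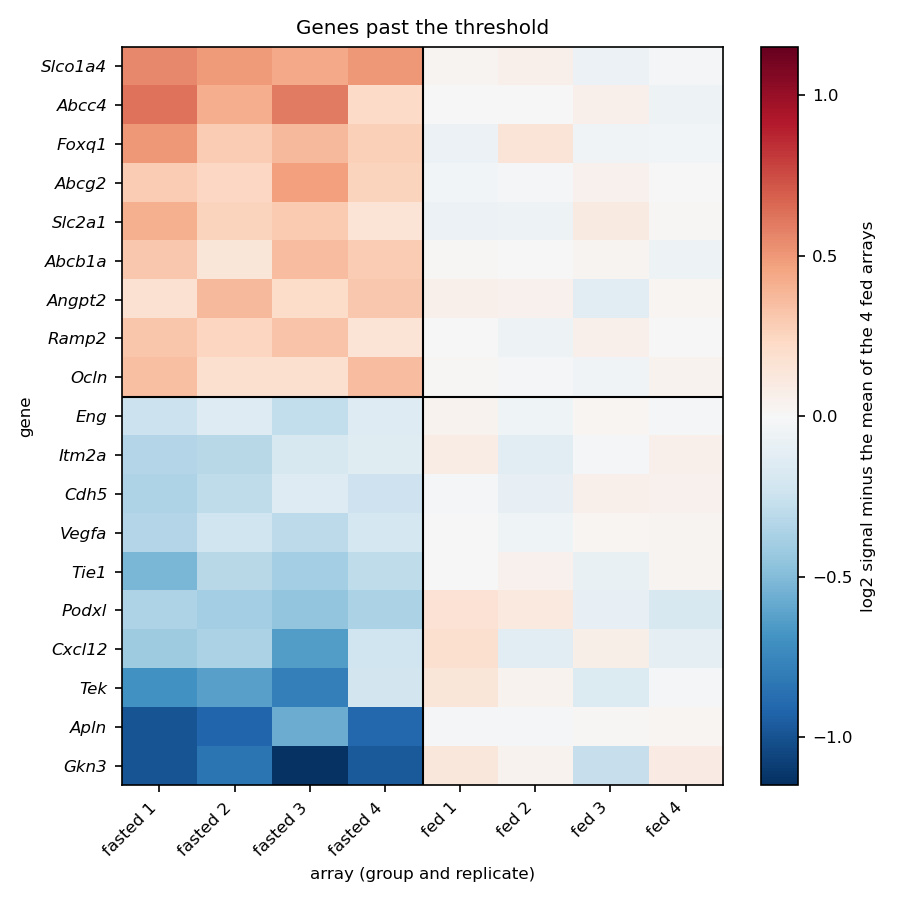
Scaled log2 signal on each array minus the mean of the 4 fed arrays, for the 19 members that passed; columns are arrays, and red is above and blue below the fed mean. The 9 higher members are red and the 10 lower members blue on all 4 fasted arrays, and Gkn3 and Apln are darkest.

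The differences were then compared between slides, each of which holds 2 fasted and 2 fed arrays. The sign was the same on both slides for 38 of the 39 members, and the exception was Ly6a at 0.03 and -0.05. For the 19 that passed a shared sign was fixed in advance, since their fasted and fed values did not overlap. The share of all genes with the same sign on both slides is not given here. The transporters had medians of 0.29 on slide 1 and 0.33 on slide 2. Slco1a4 differed by 0.47 and 0.52, Abcc4 by 0.52 and 0.41, and Slc2a1 by 0.39 and 0.17. Receptors had medians of -0.22 and -0.18, and arterial members of -0.13 and -0.41. Gkn3 differed by -1.0 and -0.97 and Foxq1 by 0.36 on each slide, whereas Tek differed by -0.75 and -0.41 and Apln by -0.94 and -0.75. A direct comparison of the slides, with the group in the fit, found 119 of all genes past the threshold and 0 members.

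**Figure D4:**
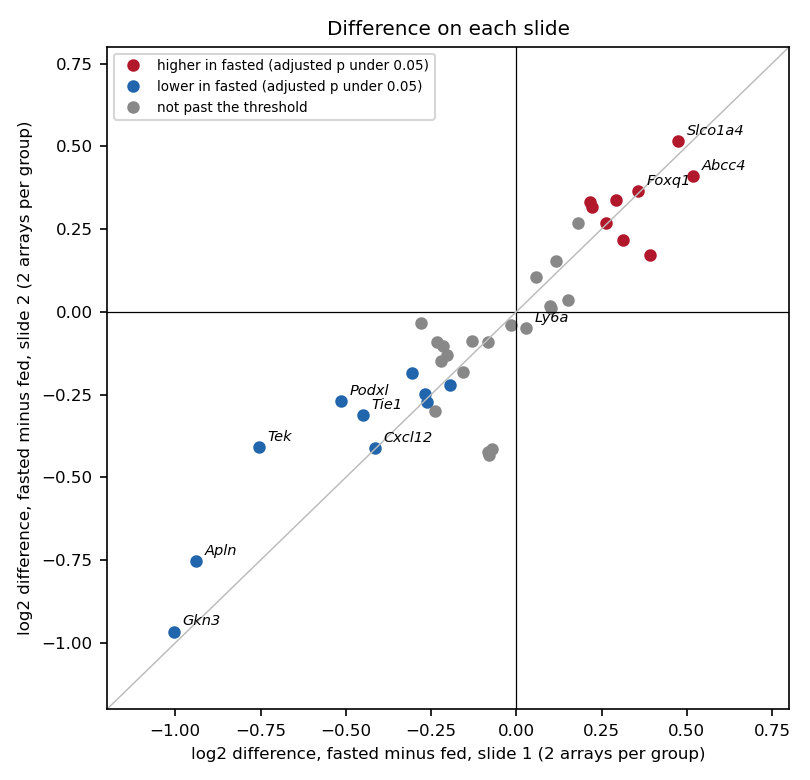
Difference between fasted and fed arrays on slide 1 (horizontal) and slide 2 (vertical) in log2 units, 1 point per member, with the line of equal values. All 9 higher members lie in the upper right and all 10 lower members in the lower left, which follows from their groups not overlapping. Tek (-0.75 and -0.41) lies off the line, and 3 members that did not pass are near -0.08 and -0.42.

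Promoters were examined because members moved in both directions. RefSeq promoter sequences (GRCm38.p6) were matched by symbol for 26 of the 39 members tested, and the 250 bases before the start were searched on both strands for 4 short motifs. The ETS motif AGGAAG, bound by the ETS family that acts in endothelium, was found in 12 of 26 members and in 29.2% of 27025 promoters of the same length. Among members it was in 3 of 6 that rose, 4 of 8 that fell and 5 of 12 that did not pass. The hypoxia motif ACGTG was in 2 of 26, Slc2a1 and Abcc4, against 16.5% of all promoters. The half-site AGAACA, only part of the full glucocorticoid receptor motif, was in 2 of 26, Tek and Nostrin, against 16.1%. The FOXO motif GTAAACA was in Abcb1a only, against 3.06%. No motif contains another. A match is a description of the letters in this window.

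The 4 members with the largest differences that had a promoter sequence are shown, to compare a transporter that rose with members that fell. Each line gives the 250 bases before the start in the direction of the gene, with a motif match in capitals.
Slco1a4: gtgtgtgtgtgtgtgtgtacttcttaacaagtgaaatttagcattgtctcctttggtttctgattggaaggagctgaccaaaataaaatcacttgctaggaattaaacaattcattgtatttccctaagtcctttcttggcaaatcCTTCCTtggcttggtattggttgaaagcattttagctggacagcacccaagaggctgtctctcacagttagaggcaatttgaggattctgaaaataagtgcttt
Gkn3: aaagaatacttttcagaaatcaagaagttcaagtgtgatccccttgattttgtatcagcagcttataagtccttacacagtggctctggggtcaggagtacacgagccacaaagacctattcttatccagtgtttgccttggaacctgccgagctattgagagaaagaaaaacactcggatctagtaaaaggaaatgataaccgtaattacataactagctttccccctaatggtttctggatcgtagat
Apln: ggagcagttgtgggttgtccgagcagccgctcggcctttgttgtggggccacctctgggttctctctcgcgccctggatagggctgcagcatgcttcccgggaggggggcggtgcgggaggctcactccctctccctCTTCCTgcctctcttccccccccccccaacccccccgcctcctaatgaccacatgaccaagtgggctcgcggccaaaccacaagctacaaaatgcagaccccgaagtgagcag
Tek: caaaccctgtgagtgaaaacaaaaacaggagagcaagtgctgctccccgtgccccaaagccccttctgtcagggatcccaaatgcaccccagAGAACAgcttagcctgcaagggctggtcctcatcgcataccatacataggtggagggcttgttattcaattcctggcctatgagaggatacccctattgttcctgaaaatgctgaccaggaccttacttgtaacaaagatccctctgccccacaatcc
The windows are chr6:141856221-141856470 (minus strand) for Slco1a4, chr6:87388936-87389185 (minus) for Gkn3, chrX:48034854-48035103 (minus) for Apln and chr4:94739039-94739288 (plus) for Tek, in GRCm38.p6. The ETS letters, read on the opposite strand as CTTCCT, begin 104 bases before the start in Slco1a4 and 113 before it in Apln, which moved in opposite directions. In Tek the glucocorticoid receptor half-site begins 158 bases before the start, and the Gkn3 window holds none of the 4 motifs.

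Other genes of the barrier and of vessel growth were taken as lists by function, each read against the 18.4% of all genes that passed. Of 25 other barrier transport genes measured, 7 were higher and 5 lower (6 and 3 with the replicate number blocked), with a median of 0.06. Mfsd2a, the lipid transporter that keeps vesicle traffic across the barrier low, rose by 1.20 ± 0.10 (limma adjusted p = 0.000967), a larger difference than that of any member. Slc38a3, a glutamine transporter, fell by 0.45 (adjusted p = 0.00154), and Abcc5, an efflux pump, differed by -0.25 (adjusted p = 0.00249, but 0.153 for the mean over its probes). Of 15 other junction genes, 4 were lower and none higher, with a median of -0.12. Ctnna1, a catenin that links cadherins to actin, fell by 0.17 (adjusted p = 0.00974), and the junctional adhesion molecule Jam2 fell by 0.22 (adjusted p = 0.0124). Its relative F11r differed by -0.22 (adjusted p = 0.0229), and did not pass without fasted replicate 1 (0.0632) or 2 (0.0621), with median scaling (0.0804) or without the filter (0.0573).

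Wnt and barrier genes gave 4 higher and 2 lower of 21 (4 and 3 with the replicate number blocked). Reck, a co-receptor for Wnt7 ligands, rose by 0.38 (limma adjusted p = 0.00113, but 0.169 for the mean over its probes), and Rnf43, which removes Frizzled receptors, rose by 0.35 (adjusted p = 0.00471). Ndp, the Frizzled 4 ligand norrin, fell by 0.22 (adjusted p = 0.0112, and 0.0599 with normexp background correction). Other angiogenic and endothelial genes gave 5 higher and 5 lower of 28 (4 and 5 with the replicate number blocked). Icam2, an adhesion molecule of endothelium, fell by 0.60 (adjusted p = 0.00407), and the netrin receptor Unc5b fell by 0.34 (adjusted p = 0.00283). Cd34, a sialomucin of endothelium, rose by 0.25 (adjusted p = 0.00523, but 0.133 for the mean over its probes).

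Other arterial and Notch genes gave 3 higher and 2 lower of 15 (2 and 2 with the replicate number blocked). Their median was 0.00, beside -0.25 over the arterial members. Fbln5, an elastic fibre protein, rose by 0.73 (limma adjusted p = 0.000967), while Alpl, alkaline phosphatase, fell by 0.57 (adjusted p = 0.00112). Ackr3, the scavenger receptor for Cxcl12, fell by 0.32 (adjusted p = 0.0171), in the same direction as its ligand. Venous genes gave 1 higher and 2 lower of 8, or 1 and 1 with the replicate number blocked. Tmsb10 fell by 0.22 (adjusted p = 0.0130). The calls of the leukocyte adhesion molecule Selp (0.32, adjusted p = 0.0202) and the glutamine transporter Slc38a5 (-0.66, adjusted p = 0.0238) were each lost when single arrays were left out. For Selp these were fasted replicate 4 and fed replicates 2 and 4 (adjusted p = 0.0530, 0.0516 and 0.0513), and it also missed with normexp background correction (0.206) and an intensity trend (0.0717). For Slc38a5 they were fasted replicates 1 and 4 and fed replicates 1 and 4 (0.0512, 0.0530, 0.0574 and 0.0592), and it missed with replicates as a block (0.0692) and without the filter (0.0530).

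Other endothelial transcription factors gave 5 higher and 1 lower of 18 (4 and 1 with the replicate number blocked). The Notch target Heyl rose by 0.62 (limma adjusted p = 0.00260) and Foxc1, a forkhead factor of vessel walls, rose by 0.42 (adjusted p = 0.00337). Klf4, a flow-responsive factor, differed by -0.24 (adjusted p = 0.0183, and 0.0522 without fasted replicate 1). Of 15 targets of the hypoxia response, 1 was higher and 2 lower, with a median of 0.00. The higher gene is Slc2a1 and the lower are Vegfa and P4ha1, a collagen prolyl hydroxylase that fell by 0.53 (adjusted p = 0.00426).

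**Figure D5:**
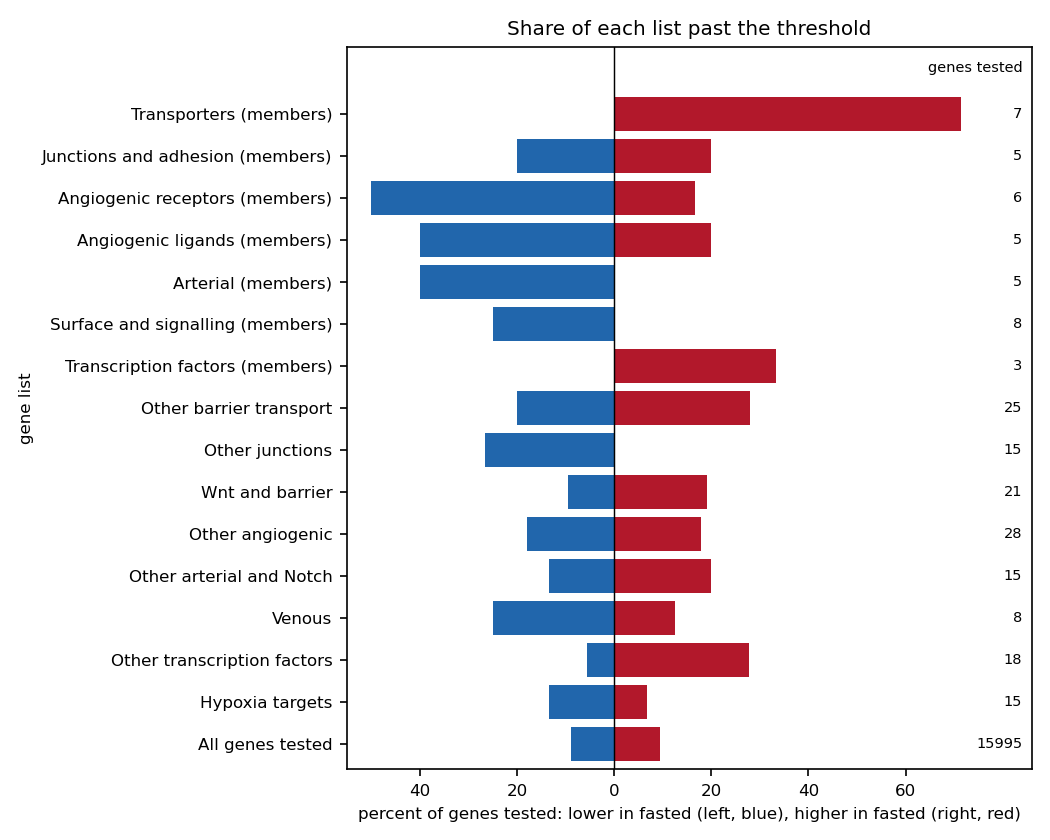
Percent of the genes tested in each list that were lower (left, blue) or higher (right, red) in fasted brain, with the number tested at the right; the bottom bar is all 15995 genes, of which 9.46% were higher and 8.96% lower. Among the lists drawn, which leave out the cell type markers, member transporters reach farthest to the right (5 of 7) and angiogenic receptors farthest to the left (3 of 6).

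Markers of the other cells in whole brain were measured beside these results. Blood markers were between 102 and 156 times the 75th percentile in fasted and between 102 and 159 times in fed arrays when summed, with none of 8 past the threshold. With the replicate number blocked, 3 of these passed, the neutrophil genes S100a8 and S100a9 higher (adjusted p = 0.0368 and 0.0257) and the globin gene Hba-a1 lower. Choroid plexus markers, which share transporters with endothelium, summed to 38.6 to 42.6 times in fasted and 39.6 to 44.5 times in fed arrays, with 1 of 10 higher and 1 lower (2 lower when blocked). Perivascular fibroblast markers were at 10.7 to 11.3 times in fasted and 10.3 to 11.3 times in fed arrays, with 1 of 8 higher and 1 lower (2 higher when blocked). The marker that was higher without blocking is Pdgfra, which is also on the oligodendrocyte list and is counted in both. Neuron markers summed to 179 to 190.4 times in fasted and 170.2 to 181 times in fed arrays, with none of 8 past the threshold, or Nefl alone when blocked (adjusted p = 0.0447). Microglia markers were at 49.4 to 53.8 times in fasted and 51.4 to 55.8 times in fed arrays, with 4 of 8 lower. Oligodendrocyte markers were at 87.0 to 95.8 times in fasted and 96.8 to 104 times in fed arrays. Of these 8, 3 were lower (2 when blocked) and 1 higher, Pdgfra. Blood, choroid plexus, fibroblast, neuron and microglia ranges overlap between groups, while the oligodendrocyte range was lower in fasted arrays throughout. The part of these cells in the differences of the members was not tested.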

How the data were processed

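RNA of 4 fasted and 4 fed mouse brain samples had been labelled with Cy3 and hybridised to Agilent arrays, per the labels. The deposited scanner files give an intensity per spot, made with Agilent Feature Extraction 11.0.1.1, per the file headers (10.10.1.1, per the submitters' processing notes). The deposited series table gives each spot as a ratio on a linear scale, equal to the scaled signal over a factor constant per probe, and served as an alternative. Its baseline is unknown.

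Control and outlier spots were left out. The log2 of the authors' deposited processed intensity minus the array's 75th percentile was averaged per probe. Probes with at least 0.5 of their spots well above background on at least 4 arrays were kept (26066 of 39429). Groups were compared with limma 3.58.1 (R 4.3.3), two-sided, with Benjamini-Hochberg adjustment over kept probes and a threshold of 0.05. The fit was tested on simulated data. Members and lists were chosen with earlier results of these data known. All members are named, and from each other list up to 3 genes with the smallest p among those that passed. Abcb1b and some cell type markers are named as well. Some probe sequences are not reported here. Other genes were named through RefSeq accessions (27427 probes matched, GRCm38.p6).

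Replicate numbers come from the sample titles. Same-numbered fasted and fed arrays deviated together (correlations 0.18 to 0.29, every pair above 0.1) and share a slide. Alternatives were normexp background correction (offset 50), 2 other scalings, 2 other filters, the series table, slide or replicate as a block, each slide alone, each array left out, an intensity trend, outlier spots kept and the mean over probes.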

Additional observations from a re-analysis of the deposited data

Results flagged for a closer look

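In 4 of 78 groups of 4 arrays (39 members, 2 groups each), 1 array stood farther from the rest than Dixon's 95% critical value of 0.829 allows. Chance flags about 5% of groups. Slco2b1 was at -0.90 in fasted replicate 3, with the other fasted arrays at -1.09 to -1.07. Efnb2 was at 0.38 in fasted replicate 4, with the others at 0.31 to 0.32. Nostrin was at -3.84 in fed replicate 1, with the others at -3.36 to -3.34. Foxq1 was at -2.05 in fed replicate 2, with the others at -2.26 to -2.23. The 4 values lie on 4 different arrays.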

How the results depend on the processing

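Of the 19 members that passed, 10 did so in all 19 alternatives other than the fits of a single slide: Slco1a4, Abcg2, Abcc4, Abcb1a, Ramp2, Foxq1, Apln, Tie1, Podxl and Gkn3. The other 9 missed in at least 1, and none of the 19 changed sign. With arrays left out or a single slide fitted, that sign was fixed in advance, since these groups did not overlap. In each single-slide fit, with 2 arrays per group, limma called 0 genes, 0 members, 0 higher and 0 lower. At an unadjusted p under 0.05 slide 1 gave 3700 genes and 25 members (10 higher, 15 lower), and slide 2 gave 2470 genes and 17 members (6 higher, 11 lower). Genes called fell from 2946 to 1953 with normexp background correction and 1730 without the filter, where more probes were tested. Leaving out 1 array gave 1861 (without fasted replicate 1) to 2543 genes, 1951 without fasted replicate 2, and 15 to 19 members, 8 to 10 higher and 7 to 10 lower. With the replicate block 20 members (10 higher, 10 lower) and 2558 genes passed, or 16.0% of genes (20.6% with the slide as a block). For members the replicate block ended the calls of Eng and Cxcl12, added Slco2b1, Emcn and Vwf, and changed no other call. Signs reversed only for members far from the threshold: Ly6a became 0.0088 with median scaling and 0.030 on slide 1 alone, and with 1 array left out it ranged from -0.073 (without fasted replicate 3) to 0.044 (without fasted replicate 4), while Ly6c1 ranged from -0.018 (without fasted replicate 3) to 0.11 (without fasted replicate 4). The cause was not tested. Dim probes such as those of Ocln, Angpt2, Tek, Podxl and Tie1 lie nearer background, which limits their folds. Over all alternatives the smallest differences were -0.27 for Podxl and -0.24 for Tie1.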
